A study of Mus musculus with 7 samples.

Results

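Collagens are the triple-helical proteins that give the extracellular matrix its framework, and their genes were described here in the hypothalamus of Bgn knockout mice with and without an oil-enriched diet. Members were all array probes whose platform gene symbol has the form Col, digits, a, digits. They were 59 probes for 37 genes, among 25697 probes for 16593 named genes. Of the 44 genes named in this way in the RefSeq gene table of GRCm38.p6, 7 had no probe matching the rule and were not analysed here (Col6a3, Col6a4, Col6a5, Col8a1, Col12a1, Col20a1 and Col22a1).

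The mice were males on a C57BL/6 background, 13 weeks old, and both groups carried the BGN knockout label. Bgn encodes biglycan, a small proteoglycan that binds collagen fibrils. The untreated group held 2 arrays (replicates 1 and 3), and the text of the series counts 3 untreated mice, of which 1 was excluded as an outlier. The group called DHA below held 5 arrays from knockout mice that ate, for about 6 weeks, a feed holding 0.5% flaxseed oil together with 1.2% capsule oil rich in docosahexaenoic acid (DHA). No group received another oil and no mice with intact Bgn were included, so the parts of DHA, flaxseed oil and extra fat cannot be told apart, and nothing here compares the knockout with normal mice. The labels state neither the allele, nor its deleted part, nor whether each extract came from a separate animal, so the p-values cover only the spread between these samples, which may be technical.

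Every collagen molecule is built from 3 chains, which are called alpha chains and are the products of the genes named here. Fibrillar collagens such as types I, III and V form the cable-like fibrils of connective tissue. In brain they lie mainly in the meninges and around larger vessels, where fibroblasts make them. Type IV collagen forms the sheet of the basement membrane around brain vessels and under the pia, with types XV and XVIII beside it. Type VI forms beaded filaments in the matrix around cells. Further types decorate fibrils, anchor epithelia or span the membrane of neurons.

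The unnormalized signal had a median of 167.4 to 173.2 on the untreated and of 174.5 to 189.5 on the DHA arrays, and 13873 to 14534 probes were detected per array. A probe is called detected here where its detection p, against the negative controls of its array, is under 0.05. Of 16 hypothalamic marker genes on the array, 13 had a probe detected on at least 2 arrays and 12 of these were detected on all 7, while Crh, Sim1 and Otp were not among them. The single Bgn probe was detected on all 7 arrays, with log2 signals of 8.71 and 8.40 (untreated) and 8.03 to 8.31 (DHA), and whether it lies in the deleted part is not given. With 2 arrays in 1 group, precision is limited throughout by that number.

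None of the collagen genes passed the test between the diets. In limma, with p-values adjusted by Benjamini-Hochberg across the 15284 tested probes, 0 of the 28 tested collagen probes had an adjusted p under 0.05, as was the case for 0% of all tested probes. At an unadjusted p under 0.05 there were 4 collagen probes higher with DHA, those of Col6a2, Col5a1 and Col18a1 (with 2 probes), and 0 lower. The Col6a2 probe and the dimmer Col18a1 probe were detected on no untreated array. They had therefore passed the filter only through the DHA arrays and could hardly have counted as lower. Among the 14 collagen probes detected on all 7 arrays, 2 were higher by that rule and 0 lower. Over all tested probes 5.18% were higher and 5.08% lower by that rule. Among the 28 tested, the 4 probes were also those for which all DHA arrays lay above both untreated arrays, which held for 7.89% of all tested probes. No tested collagen probe had all DHA arrays below both untreated arrays (0 of 28), against 9.06% of all tested probes. The unadjusted count of collagen probes rested on single arrays, since it was 3 without DHA replicate 2 and 7 without DHA replicate 1. In those fits 1552 and 1413 of all 15284 tested probes reached that p in limma. Leaving out an untreated array leaves a single array in that group, so the count is not given for those fits. How far the count depends on either untreated array is therefore not shown.

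Many collagen probes gave no signal above background on any array. Of the 59 probes, 14 were detected on all 7 arrays, 29 on none and 2 on a single array. The 28 probes detected on at least 2 arrays, for 21 genes, were tested, a share of 47.5% where 59.5% of all probes passed. Fibrillar probes passed in 8 of 17 cases, basement membrane probes in 6 of 13 and probes of the other types in 14 of 29. Detection on all 7 arrays was met by 1 fibrillar probe (Col5a1), 5 basement membrane probes and 8 probes of other types. The 31 untested probes had normalized log2 signals between 4.29 and 5.19. Some of the genes behind them were detected by another probe. Of 12 genes with several probes, 6 had both a tested and an untested probe, and Col6a1, Col7a1 and Col18a1 each had a probe detected on all 7 arrays beside a probe detected on none. A missing signal does not show that the RNA was absent, and for the 16 genes without a tested probe a poorly performing probe and little RNA cannot be told apart.

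**Figure D1:**
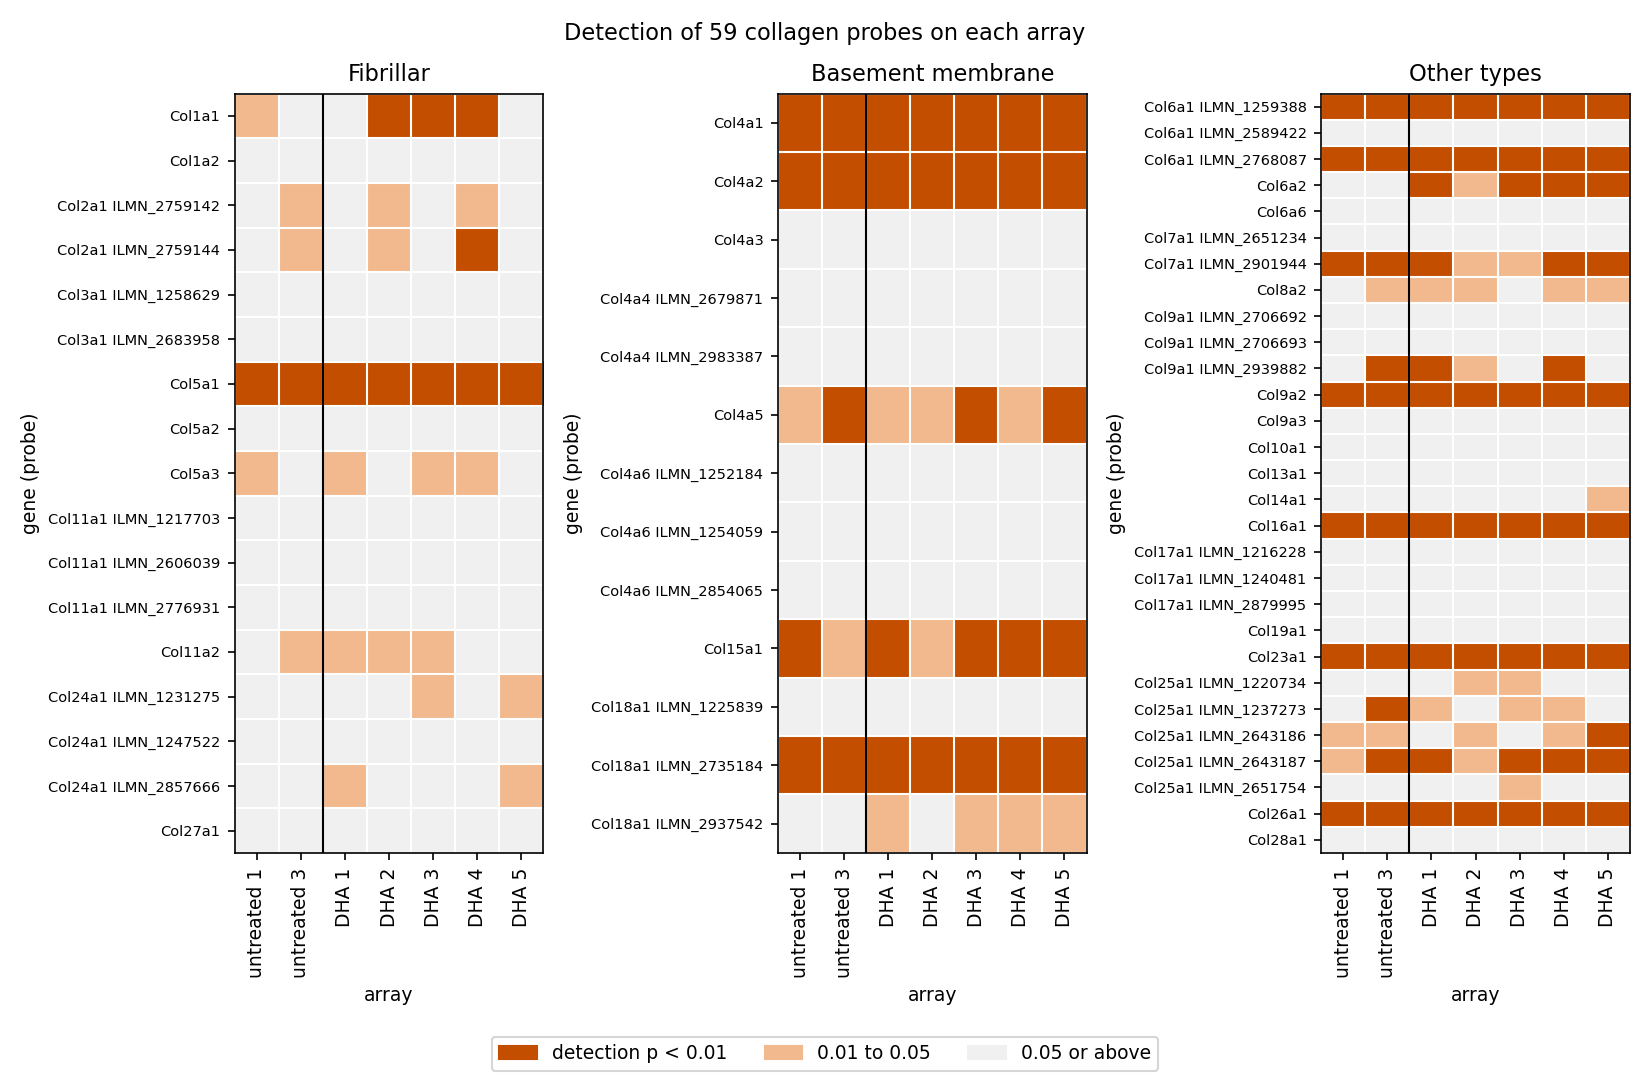
Each row is 1 of the 59 collagen probes and each column 1 of the 7 arrays, with the untreated arrays left of the black line. Colour gives the detection p-value in 3 steps. The probes of Col5a1, Col4a1, Col4a2, Col9a2 and Col16a1 were below 0.01 on every array, while those of Col1a2, Col3a1 and Col5a2 were at 0.05 or above on every array.

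The major fibrillar collagens of connective tissue were at or near background. Col1a2, the second chain of type I collagen, had a single probe whose smallest detection p over the 7 arrays was 0.0501. Col3a1, the chain of type III collagen in elastic and vascular tissue, had 2 probes with smallest detection p of 0.0764 and 0.336. Col5a2 (smallest 0.361), Col27a1 (0.0627) and the 3 probes of Col11a1 (0.0539 to 0.154) were likewise detected on 0 of 7 arrays. No fold is given for these genes, because both groups were below background.

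Col1a1, the main chain of type I collagen, was detected on 1 of 2 untreated and 3 of 5 DHA arrays. Log2 signals were 5.36 and 5.01 in untreated replicates 1 and 3, and 4.98, 6.26, 5.72, 6.03 and 5.11 in DHA replicates 1 to 5. Replicates 2, 3 and 4 of the DHA group stood above both untreated arrays and the remaining pair did not, so the groups overlapped. The difference of 0.43 (SE 0.35) had a 95% interval from -0.38 to 1.25 and a limma adjusted p of 0.704. Leaving out untreated replicate 3 gave 0.26, leaving out DHA replicate 2 gave 0.27, and omitting background correction gave 0.12.

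Col5a1 encodes a chain of type V collagen, which starts fibrils and sets their width. It was the fibrillar gene with the widest separation between the diets. Log2 signals were 6.22 and 5.60 without the diet, and 6.35, 7.04, 6.94, 6.48 and 6.83 in DHA replicates 1 to 5. All 5 DHA arrays were above both untreated arrays, although DHA replicate 1 stood only slightly above untreated replicate 1. The difference of 0.82 (SE 0.23, a fold of 1.77) had a 95% interval from 0.28 to 1.36 and did not pass (limma adjusted p 0.332). It was 1.13 without untreated replicate 1 and 0.51 without untreated replicate 3. Without background correction it was 0.31, the same as on the deposited normalized values.

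The other fibrillar probes were dim, and their intervals all included 0. Col2a1, the cartilage collagen, differed by -0.22 (SE 0.24) and -0.12 (SE 0.20) on its 2 probes, with log2 signals of 5.03 and 5.59 against 4.75 to 5.58 and of 4.93 and 5.52 against 4.91 to 5.46 (untreated, then DHA). Col5a3, a further type V chain, differed by -0.13 (SE 0.20), with 5.48 and 5.00 against 4.76 to 5.35. The groups overlapped on all of these. Col24a1 differed by 0.09 (SE 0.13) and -0.02 (SE 0.16) on 2 probes that no untreated array detected, with 4.92 and 4.94 against 4.79 to 5.21 and 5.06 and 5.06 against 4.67 to 5.32. Adjusted p from limma ran from 0.772 to 0.978 over these 5 probes. Col11a2, a type XI chain, was detected on 1 of 2 untreated and 3 of 5 DHA arrays, with overlapping groups. Over the 8 tested fibrillar probes, 4 were higher and 4 lower with DHA, with a median difference of 0.03 on the log2 scale against -0.01 over all tested probes, and it was -0.02 when arrays were scaled to a common median. Without untreated replicate 3 the fibrillar median was 0.14.

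**Figure D2:**
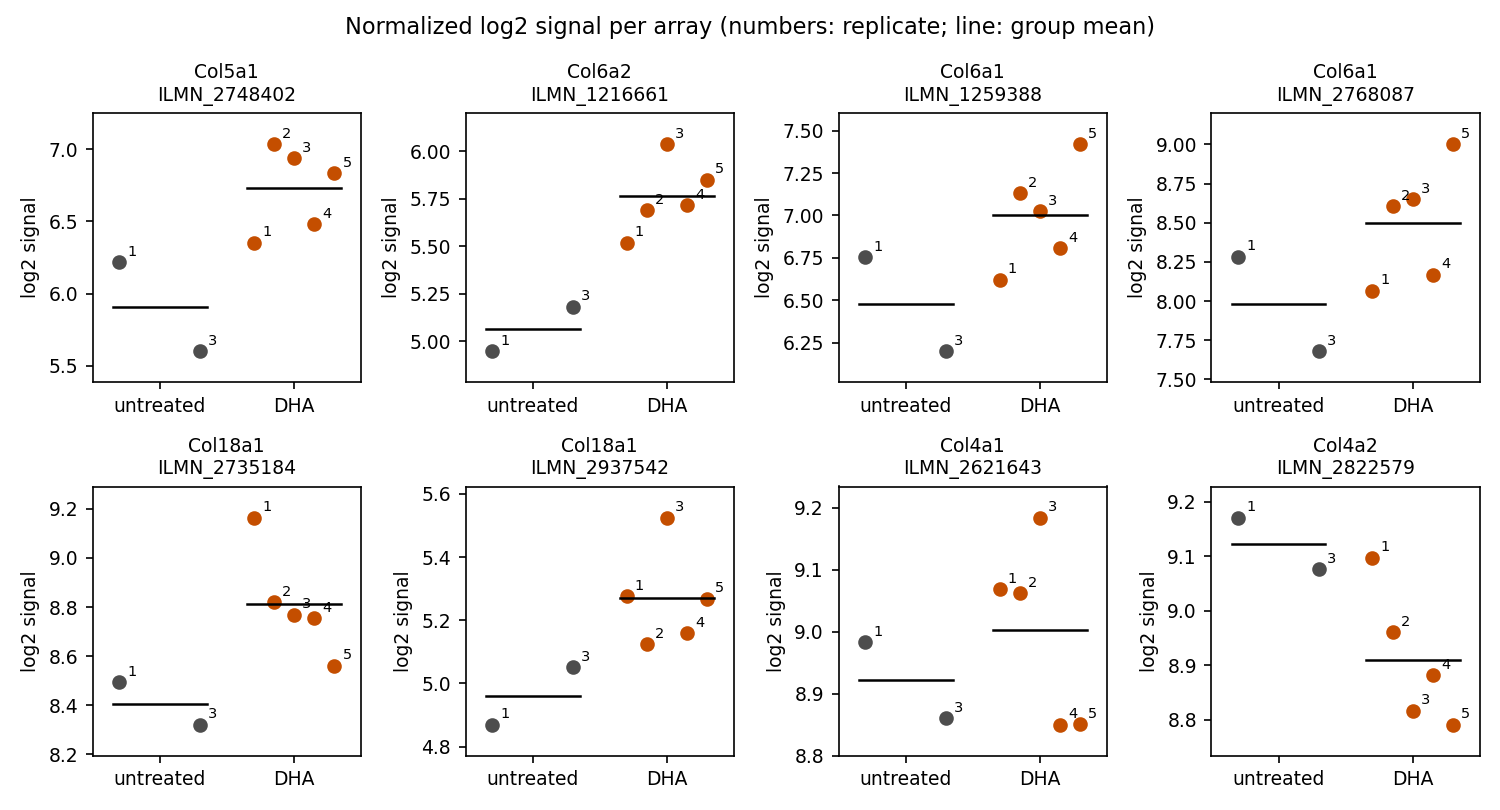
Normalized log2 signal of 8 collagen probes on each array, with the replicate number beside each point and a line at the group mean, and with separate vertical scales that do not start at 0. For Col5a1, Col6a2 and both tested Col18a1 probes the 5 DHA arrays lie above the 2 untreated arrays. For Col6a1, Col4a1 and Col4a2 the groups overlap.

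Among basement membrane collagens, the main vascular chains Col4a1 and Col4a2 were clearly detected and did not pass the test. These chains assemble together in the common form of type IV collagen, and their genes are read in opposite directions from neighbouring starts. RefSeq promoter windows (250 bases before to 50 after the start, build GRCm38.p6) were found for 30 of the 37 genes, and this was the only pair whose windows overlapped, by 78 bases. Both windows are shown because the RNAs that start from them are compared below. Capitals mark the shared bases, which read as each other's reverse complement. Col4a1 lies on the minus strand at chr8:11312777-11313076 and Col4a2 on the plus strand at chr8:11312555-11312854.
Col4a1: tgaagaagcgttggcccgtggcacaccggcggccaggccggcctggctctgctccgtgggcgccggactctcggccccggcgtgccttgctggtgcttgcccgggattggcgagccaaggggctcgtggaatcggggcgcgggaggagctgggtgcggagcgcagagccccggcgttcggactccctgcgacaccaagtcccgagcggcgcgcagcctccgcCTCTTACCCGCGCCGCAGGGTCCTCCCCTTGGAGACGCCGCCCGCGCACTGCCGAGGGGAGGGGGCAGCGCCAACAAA
Col4a2: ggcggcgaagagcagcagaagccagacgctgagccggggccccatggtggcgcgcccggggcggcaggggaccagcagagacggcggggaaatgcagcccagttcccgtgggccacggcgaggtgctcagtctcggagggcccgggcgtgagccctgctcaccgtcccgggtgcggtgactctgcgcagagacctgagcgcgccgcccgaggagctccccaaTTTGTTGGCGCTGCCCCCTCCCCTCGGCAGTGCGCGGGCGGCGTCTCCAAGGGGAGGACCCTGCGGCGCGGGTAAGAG

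Col4a1 had log2 signals of 8.98 and 8.86 in the untreated arrays and of 9.07, 9.06, 9.18, 8.85 and 8.85 in DHA replicates 1 to 5. The groups overlapped throughout, and the difference of 0.08 (SE 0.12) had a 95% interval from -0.20 to 0.36. Col4a2 had 9.17 and 9.08 in the untreated arrays and 9.10, 8.96, 8.82, 8.88 and 8.79 in DHA replicates 1 to 5. Of its DHA arrays 4 lay below both untreated arrays and replicate 1 lay between them. The difference of -0.21 (SE 0.11) had a 95% interval from -0.47 to 0.04, which includes 0. The limma adjusted p was 0.839 for Col4a1 and 0.538 for Col4a2.

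Within each array, the log2 signal of Col4a2 minus that of Col4a1 was 0.19 and 0.22 in the untreated arrays. It was 0.03, -0.10, -0.37, 0.03 and -0.06 in DHA replicates 1 to 5. All DHA arrays were therefore below both untreated arrays on this measure, by 0.29 between the group means. The same measure was taken for Col6a1 minus Col6a2, and there the groups overlapped. With the Col6a1 probe ILMN_1259388 it was 1.81 and 1.02 untreated against 0.99 to 1.57 with DHA. With ILMN_2768087 it was 3.34 and 2.50 against 2.45 to 3.15. The Col4a2 and Col4a1 pair was examined after its values were seen and no test is given. How often other pairs of probes separate in this way was not counted. The size of such a difference between probes carries no meaning on its own, only its change between arrays.

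Col18a1 encodes type XVIII collagen, a basement membrane proteoglycan from which the fragment endostatin is cut. On its brightest probe (ILMN_2735184) the log2 signal was 8.49 and 8.32 without the diet and 9.16, 8.82, 8.77, 8.75 and 8.56 in DHA replicates 1 to 5. All DHA arrays were higher, with a difference of 0.41 (SE 0.16, 95% interval 0.04 to 0.77). A dimmer probe (ILMN_2937542), seen by 0 of 2 untreated arrays and 4 of 5 DHA arrays, was at least 1.04-fold higher. Its values were 4.87 and 5.05 against 5.13 to 5.52, all DHA arrays again being higher. Of all tested probes, 1.14% were detected in at least 4 DHA arrays and in neither untreated array. The limma adjusted p was 0.452 and 0.469 for the 2 probes, and the third Col18a1 probe was detected on no array.

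Col15a1, the related type XV chain of vessel walls, had log2 signals of 5.91 and 5.42 without the diet and 5.90, 5.32, 6.12, 5.47 and 5.86 in DHA replicates 1 to 5. Col4a5, a further type IV chain, had 5.38 and 5.61 without the diet and 5.39, 5.27, 5.65, 5.22 and 6.22 in DHA replicates 1 to 5. For each gene both untreated arrays lay within the range of the DHA arrays. The differences were 0.07 (SE 0.23) for Col15a1 and 0.06 (SE 0.26) for Col4a5. Both were detected on all 7 arrays, with overlapping groups and limma adjusted p of 0.934 and 0.957. Leaving out untreated replicate 3 or DHA replicate 3 turned the sign for Col15a1 (-0.18 and -0.03), and leaving out untreated replicate 1 or DHA replicate 5 turned it for Col4a5 (-0.06 and -0.11). Col4a3, Col4a4 and Col4a6, chains best known from kidney and other specialised basement membranes, were detected on no array by any of their 6 probes. The median over the 6 tested basement membrane probes was 0.08, with 5 higher and 1 lower.

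Type VI collagen had 2 genes with a tested probe, Col6a1 and Col6a2, and neither passed the test. Col6a1 was detected in both groups, while Col6a2 reached the detection threshold only in the DHA arrays and narrowly missed it in untreated replicate 3. Its beaded filaments need a chain from Col6a1 and a chain from Col6a2, genes that lie on the same chromosome. Their RefSeq promoter windows are shown because both chains go into the same filament. They lie on the minus strand of GRCm38.p6, Col6a1 at chr10:76725995-76726294 and Col6a2, at 1 of its 2 listed starts, at chr10:76623355-76623654. Capitals mark GGGCGG or its reverse complement CCGCCC, a motif bound by Sp1-type factors.
Col6a1: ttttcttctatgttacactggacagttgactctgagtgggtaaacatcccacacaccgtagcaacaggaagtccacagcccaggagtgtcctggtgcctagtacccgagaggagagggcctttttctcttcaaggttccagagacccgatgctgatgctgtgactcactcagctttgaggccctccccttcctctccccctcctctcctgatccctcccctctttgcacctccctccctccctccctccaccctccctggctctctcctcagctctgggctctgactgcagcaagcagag
Col6a2: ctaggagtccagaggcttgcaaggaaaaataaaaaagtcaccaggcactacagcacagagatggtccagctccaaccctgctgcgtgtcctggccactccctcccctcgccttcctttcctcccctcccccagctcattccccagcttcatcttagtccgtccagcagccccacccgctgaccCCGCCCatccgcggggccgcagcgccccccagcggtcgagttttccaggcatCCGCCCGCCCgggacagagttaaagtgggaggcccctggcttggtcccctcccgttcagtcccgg

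The motif was searched on both strands. The Col6a2 window shown held 3 matches, of which a pair overlap, and the Col6a1 window held 0. The window of the other listed Col6a2 start (chr10:76623581-76623880) held 1. At least 1 match was present in 35.7% of the 32851 windows of all genes, in 15 of 21 windows (71.4%) of collagen genes with a tested probe, and in 20 of the 33 windows of all collagen genes on the array. CCAAT or its reverse complement ATTGG was present in 37.4% of all windows, in 9 of these 21 and in 12 of these 33, among them the windows of Col4a1 and Col4a2. TATAAA or TTTATA was present in 13.6% of all windows, in 1 of these 21 and in 5 of these 33 (15.2%). A match describes letters and is no evidence of binding.

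Col6a2 had the smallest p among the collagens. Both untreated arrays were below the detection threshold, at log2 signals of 4.95 and 5.18. DHA replicates 1 to 5 all detected it, at 5.52, 5.69, 6.04, 5.71 and 5.85. It was at least 1.46-fold higher, and its limma adjusted p was 0.215. Detection on every DHA array but no untreated array was found for 0.379% of all tested probes. The probe passed the detection filter only through the DHA arrays, so its entry into the test was not independent of its difference. The difference of 0.70 (SE 0.15) is on a scale with an added offset, and without background correction it was 0.18.

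Col6a1 was detected on all 7 arrays by 2 probes. On ILMN_2768087 the log2 signal was 8.28 and 7.68 in untreated replicates 1 and 3 and 8.07, 8.60, 8.65, 8.17 and 9.002 in DHA replicates 1 to 5. On ILMN_1259388 it was 6.75 and 6.20, against 6.62, 7.13, 7.03, 6.81 and 7.42. Both probes were lowest in untreated replicate 3 and highest in DHA replicate 5, and on both untreated replicate 1 lay within the range of the DHA arrays. The differences were 0.52 (SE 0.27, 95% interval -0.11 to 1.15) and 0.52 (SE 0.23, 95% interval -0.01 to 1.06), with limma adjusted p of 0.545 and 0.495. They were 0.82 and 0.80 without untreated replicate 1, and 0.22 and 0.25 without untreated replicate 3. Without background correction they were 0.36 and 0.24. Another Col6a1 probe and the probe of Col6a6 were detected on no array.

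Several of the remaining types were detected, with differences of either sign that did not pass. Col7a1, the anchoring fibril collagen of skin, had log2 signals of 6.46 and 5.85 in the untreated arrays and of 6.32, 5.30, 5.29, 5.53 and 5.85 in DHA replicates 1 to 5. The groups overlapped, and the difference of -0.50 (SE 0.30) had a 95% interval from -1.19 to 0.19. Without untreated replicate 1 it was -0.20, without untreated replicate 3 it was -0.80, and without background correction it was -0.15. In limma the adjusted p was 0.594.

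Among the membrane-spanning collagens, Col23a1 differed by 0.29 (SE 0.20). Untreated log2 signals of 7.28 and 7.58 overlapped the DHA range of 7.41 to 8.05. The difference was 0.14 without untreated replicate 1, 0.43 without untreated replicate 3 and 0.17 without background correction. Col25a1 encodes the neuronal collagen known from amyloid plaques, and its 3 probes detected in both groups disagreed in sign, with differences of -0.33 (SE 0.21), 0.21 (SE 0.21) and 0.01 (SE 0.21). The second of these (ILMN_2643187) was 0.017 without untreated replicate 1. A further tested probe (ILMN_1220734) was detected on 0 of 2 untreated and 2 of 5 DHA arrays, with log2 signals of 4.84 and 4.96 against 4.63 to 5.36. The probe with the largest of these differences (ILMN_1237273) had 5.02 and 5.88 without the diet and 5.24, 4.94, 5.16, 5.24 and 5.02 in DHA replicates 1 to 5. Untreated replicate 3 was its highest array, and untreated replicate 1 lay within the DHA range. Over these 5 probes the limma adjusted p ranged from 0.625 to 0.987. The remaining Col25a1 probe (ILMN_2651754) was detected on 1 DHA array only and was not tested. Col13a1 and Col17a1 were detected on no array.

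Among the collagens that sit on fibrils, Col9a2 of type IX and Col16a1 were detected on all 7 arrays. Log2 signals of Col9a2 were 9.55 and 9.65 without the diet against 9.12 to 9.90 with it, and those of Col16a1 were 9.21 and 9.16 against 8.84 to 9.33. Both ranges overlapped. The tested probes of Col9a1 and the network-forming Col8a2 were each detected in 1 of 2 untreated arrays, and Col26a1 on all 7. With the fibrillar Col11a2, these 6 probes differed by between -0.32 and 0.23, with overlapping groups and limma adjusted p of 0.719 to 0.924. Col9a3, Col10a1, Col19a1 and Col28a1 were detected on no array and Col14a1 on 1. Over the 14 tested probes of the other types, 9 were higher and 5 lower, with a median of 0.11, which was -0.02 without untreated replicate 1.

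**Figure D3:**
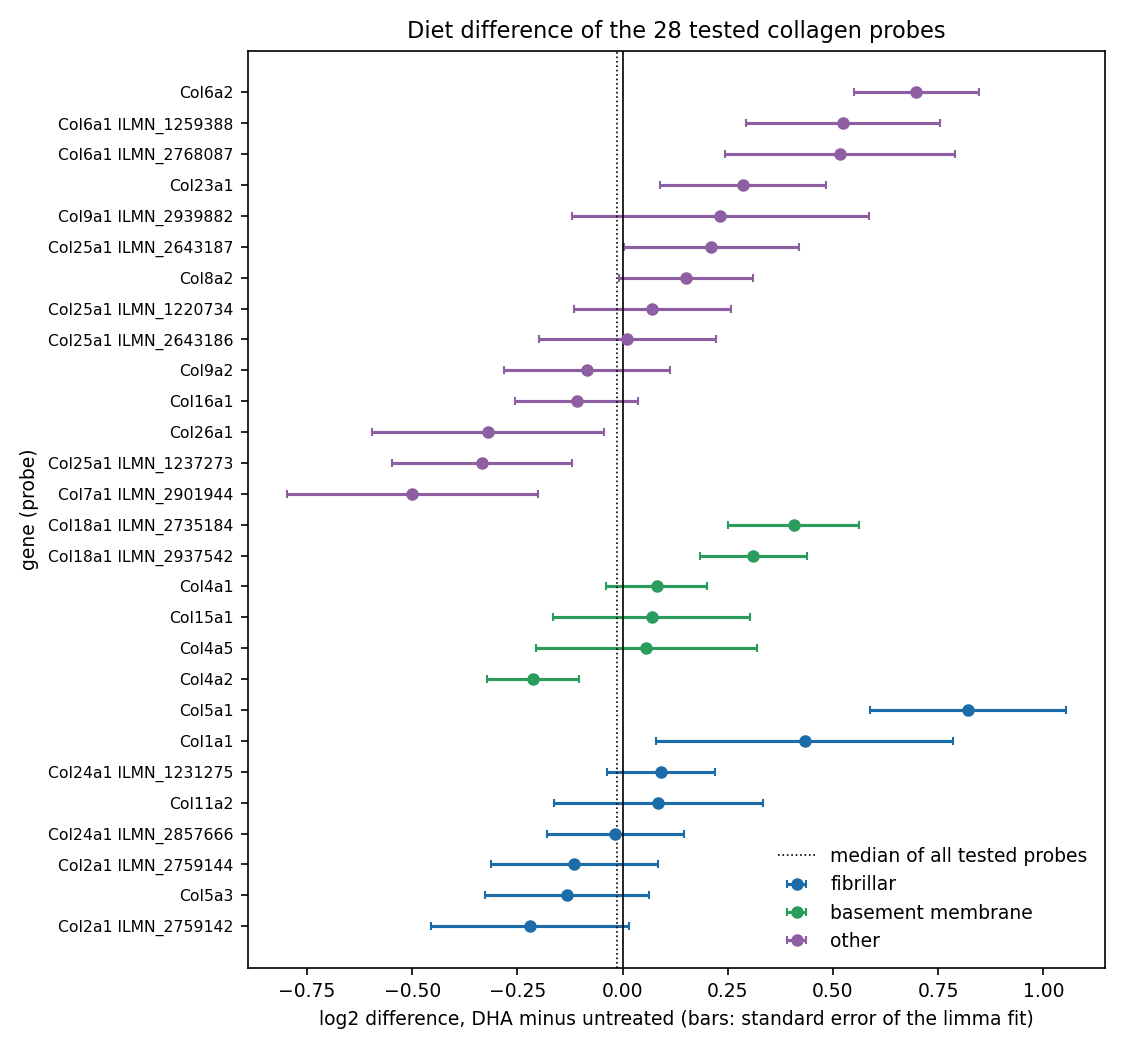
Log2 difference of each of the 28 tested collagen probes, DHA minus untreated, with bars for the standard error of the limma fit and colours for the 3 classes. The dotted line is the median of all 15284 tested probes (-0.01). Of the 28 probes 18 lie right of 0 and 10 left, and none passed the test.

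Taking all tested collagen probes, 18 of 28 (64.3%) were higher with DHA and the median difference was 0.08, where 47% of all tested probes were higher. The 5 probes that no untreated array detected had passed the filter only through the DHA arrays. With these held at their bounds, the collagen median was 0.05. Among the 14 collagen probes detected on all 7 arrays, 9 were higher and the median was 0.08, against 45.3% higher and a median of -0.02 over the 12521 probes so detected. Leaving out single arrays moved the count of higher probes between 14 and 20. The mean log2 signal of the tested fibrillar probes was 5.21 and 5.28 without the diet and 5.21 to 5.49 with it. For basement membrane probes it was 7.13 and 7.06 against 7.06 to 7.34, and for the other types 6.44 and 6.53 against 6.52 to 6.71, so the groups overlapped in each class. Over all 28 tested probes, 5 of which had passed only through the DHA arrays, the mean was 6.24 and 6.28 against 6.32 to 6.42, which did not overlap. Over the 14 detected on all 7 arrays it was 7.47 and 7.28 against 7.37 to 7.64, which did. The median collagen probe had a standard error of 0.20 log2, against 0.14 over all tested probes.

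Markers of meninges and fibroblasts, cells that make fibrillar collagens, stood higher in the DHA arrays, without passing the test. All 21 tested markers of 24 on the array were higher with DHA, with a median of 1.40 log2, and 0 passed limma's adjusted p. Over all tested probes 47% were higher. The marker Omd was detected on no untreated array and had passed the filter only through the DHA arrays. With Omd held at its bound the median was also 1.40. Their mean log2 signal was 8.01 and 7.09 in untreated replicates 1 and 3, and every DHA array was higher, at 8.40 to 9.07. Summed on the linear scale they reached 9999 to 19045 without the diet and 26480 to 41196 with it. Untreated replicate 1 detected 19 of the 21 and untreated replicate 3 detected 15, and the DHA arrays 20 or 21. The list leaves out all collagens. Like the lists below, it was chosen with earlier results of these data known, so its count is not an independent result. It includes Asgr1, better known from hepatocytes, which differed by 1.84 (SE 0.42), and Dcn, which encodes decorin, a fibril-binding proteoglycan, and which differed by 1.31 (SE 0.25). The part of these cells in the collagen differences was not tested, and in a bulk extract fewer cells of a type and less RNA per cell cannot be told apart.

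Markers of the other matrix-producing cells were as follows. Of 10 tested mural cell markers, from pericytes and smooth muscle, 9 were higher with DHA, with a median of 0.44, and summed signals were 2851 to 5557 without the diet against 6319 to 10331. Of 10 endothelial markers 8 were higher, with a median of 0.14 and summed signals of 6427 to 7075 against 6546 to 7077. Of 8 choroid plexus markers on the array 4 were tested and 2 of these were higher, with sums of 1472 to 2583 against 1723 to 4614. Ttr stands in this list and in the liver list. Its log2 signals were 9.13 and 7.95 without the diet and 7.35 to 11.59 with it. Liver markers were higher in 8 of 8 cases but ranged from 1903 to 13610 within the DHA arrays, against 3028 to 3312 in the untreated arrays. None of these lists held a member with a limma adjusted p under 0.05. Over all tested probes 47% were higher. The mural, endothelial and liver lists each held 1 member that no untreated array detected (Tagln, Cdh5 and Serpina1a). These members had passed the filter only through the DHA arrays. With them held at their bounds, the list medians were 0.44, 0.07 and 0.83, the last against 1.03. The part of any of these lists in the collagen values was not tested.

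**Figure D4:**
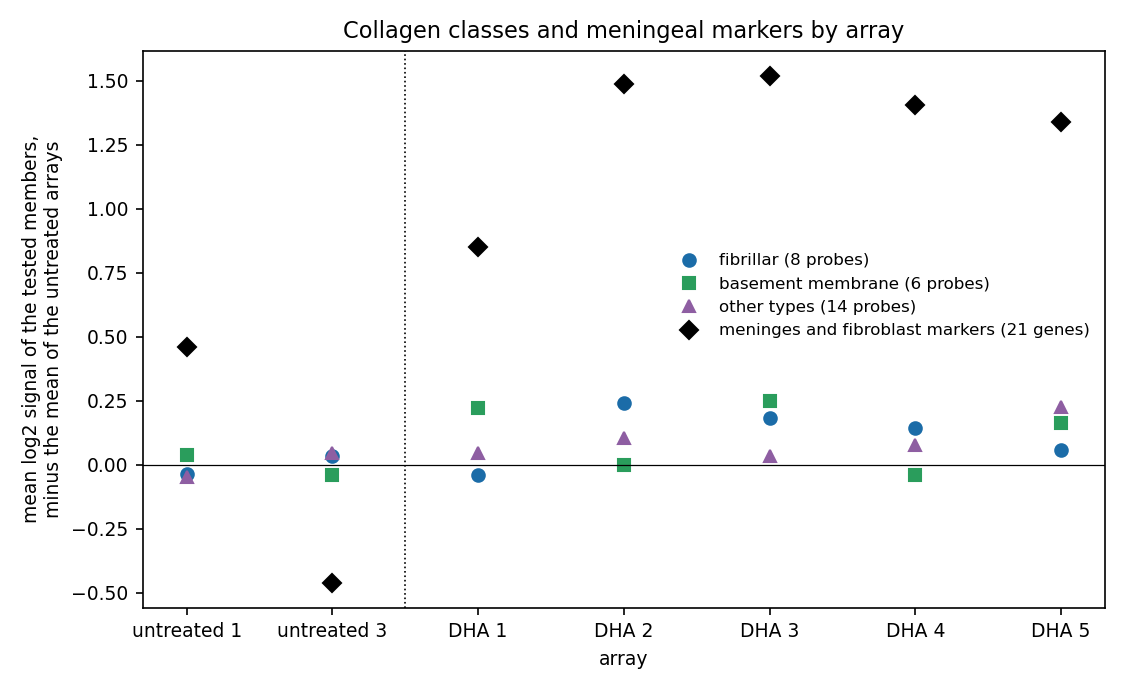
Mean log2 signal of the tested members of each collagen class and of the 21 meningeal and fibroblast markers on each array, as the difference from the mean of the 2 untreated arrays. Before that mean is subtracted, the marker score ranges from 7.09 to 8.01 in the untreated and from 8.40 to 9.07 in the DHA arrays. The fibrillar mean, also before subtraction, runs from 5.21 to 5.28 in the untreated and from 5.21 to 5.49 in the DHA arrays.

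Collagen has to be modified, cut and crosslinked before it can form fibrils, and the genes for these steps differed in both directions. Of 35 listed genes, 31 were on the array and 23 had a tested probe, of which 12 were higher and 11 lower with DHA, with a median of 0.01. In limma 0 of 23 passed, while at an unadjusted p under 0.05 there were 3 higher and 2 lower, where 5.18% and 5.08% of all tested probes were. Pcolce, which speeds the removal of the end piece of procollagen, had log2 signals of 5.82 and 5.32 without the diet and 6.39, 7.43, 7.44, 6.93 and 7.19 with it. All DHA arrays were higher, by 1.51 (SE 0.29, limma adjusted p 0.184). Lox, the enzyme that crosslinks collagen and elastin, was seen by 0 of 2 untreated and by 5 of 5 DHA arrays. The diet group was higher by at least 1.37-fold, with an adjusted p of 0.349 in limma. Lox, 1 of the 3 higher genes, had passed the filter only through the DHA arrays. That detection pattern was found for 0.379% of all tested probes.

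Serpinh1, the collagen chaperone of the endoplasmic reticulum, differed by 0.36 (SE 0.12), with 5.72 and 5.52 against 5.85 to 6.13 with DHA. Colgalt2, a galactosyltransferase for collagen, differed by 0.33 (SE 0.15; other probe -0.07). In the other direction, P3h1, a prolyl 3-hydroxylase, had 6.23 and 6.05 against 5.55 to 5.84, all DHA arrays being lower, by -0.43 (SE 0.12). Its other probe differed by 0.03. P3h4, a partner of the collagen lysyl hydroxylases, differed by -0.25 (SE 0.10), with all DHA arrays lower, P4ha3, a subunit of prolyl 4-hydroxylase, by -0.45 (SE 0.23) and Plod3, a lysyl hydroxylase, by -0.11 (SE 0.10). For these 6 genes limma gave adjusted p from 0.330 to 0.731.

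Receptors for collagen were thinly covered, with 3 of 8 genes on the array tested. The integrin chains Itga11 and Itgb1 differed by 0.16 (SE 0.18) and 0.06 (SE 0.25), and the receptor kinase Ddr1 by -0.15 (SE 0.18), with limma adjusted p between 0.778 and 0.948. Of the genes for collagen breakdown and its inhibitors, 8 of 10 were tested, 7 were higher and 1 lower, with a median of 0.22, and 0 passed. Over all tested probes 47% were higher. Timp3, a matrix-bound inhibitor of metalloproteinases, had 11.15 and 11.13 without the diet and 11.41 to 11.79 with it, a difference of 0.44 (SE 0.11), and its other probe differed by 0.83 (SE 0.28). Mmp2, a gelatinase, differed by 0.47 (SE 0.24), the cysteine protease Ctsk by 0.39 (SE 0.22), Timp2 by 0.12 (SE 0.08) and the collagenase Mmp1a by -0.11 (SE 0.10). The DHA arrays lay above both untreated arrays for Timp3, Mmp2 and Timp2 (3 of 8), as for 7.89% of all tested probes. Their limma adjusted p ran from 0.313 to 0.740.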

How the data were processed

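Hypothalamic RNA of 7 samples, 2 untreated and 5 DHA, was measured on Illumina bead arrays, per the labels' protocols. The deposited unnormalized table gives, for each probe on each array, an intensity with its detection p-value, per the file headers. Its values are linear, and their lowest level (117 to 124) shows that no background was subtracted. Its 2 further per-sample columns match no sample and were not used. The authors also deposited normalized intensities, on a linear scale with medians of 174.5 to 175.0 per array, used as an alternative. In these, DHA replicate 5 equals its unnormalized signals (largest difference 0). Tools named in the submitters' processing notes are lumi 2.10.0 and R 2.15.0. Their settings were not given in the sources used here.

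Signals were background-corrected in limma 3.58.1 (R 4.3.3) by normexp from the detection p-values (offset 16), followed by quantile normalization and log2, which removes differences in total RNA and shrinks the folds of dim probes. The 15284 probes that 2 or more arrays detected (p under 0.05) entered lmFit and eBayes, two-sided, adjusted by Benjamini-Hochberg over all of them. The procedure was tested on simulated data. An at-least fold sets the mean of the brighter group against, per array, the higher of the probe's own signal and the lowest detected signal. Gene symbols came from the platform annotation (23978 probes with 1 symbol, 1719 with none, 0 with several), and list members were also matched through current RefSeq names.

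The members and lists were chosen with earlier results of these data known. Array values are given for 8 fixed collagens and the up to 6 probes of each class with the smallest p. From the lists of collagen synthesis, receptors and breakdown, up to 4 genes per direction with the smallest p are named, each by its brightest tested probe. The other tested collagen probes are given by their range, and Dcn and Asgr1 were named after their values were seen.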

Additional observations from a re-analysis of the deposited data

How the results depend on the processing

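The count of 0 called collagen probes held under each of the 16 alternatives run across all probes, and the smallest adjusted p of a collagen probe under any of them was 0.157 (Col5a1, with an intensity trend and robust variances). Over all tested probes, 0 were called, against 12 on the deposited values, 12 without background correction, 1 with normexp and an offset of 50, 52 with an intensity trend and robust variances, and 0 to 3 when single arrays were left out. Collagen probes at an unadjusted p under 0.05 numbered 4, against 7 without the detection filter, and 3 to 7 when single DHA arrays were left out. Over all tested probes the counts were 1568 of 15284, then 2177 of 25697 without the filter. They were 1413 to 1577 of 15284 when single DHA arrays were left out. Collagen probes higher with DHA numbered 18, against 34 of 59 without the filter and 6 of 10 with detection p under 0.01 in all arrays, as fewer or more probes were tested. The fibrillar median was 0.82 under that stricter filter, where it rests on Col5a1 alone, and -0.012 to 0.14 when single arrays were left out. For basement membrane the latter range was 0.03 to 0.18. The median of the other types was 0.025 on the deposited values, 0.026 without background correction, and -0.022 to 0.17 when single arrays were left out. The cause of these shifts was not tested beyond the number of probes and arrays.

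With the replicate number as a block, which uses the 2 numbers both groups share, no probe was called (0 of 15284, with 1194 at an unadjusted p under 0.05 against 1568). In that fit the median was 0.27 for basement membrane and -0.014 for other types. Deviations of same-numbered arrays from their group means correlated at 0.00 (replicate 1) and 0.03 (replicate 3). The deviations of the 2 untreated arrays mirror each other, so these values cannot decide whether arrays that share a number are paired.

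Of 22 named collagen probes, 13 kept their sign under every alternative in which they were tested, among them those of Col5a1, Col6a1, Col6a2, Col18a1, Col1a1, Col4a1, Col4a2 and Col7a1. The others were all dim, and their ranges when single arrays were left out were -0.18 to 0.31 for Col15a1, -0.11 to 0.17 for Col4a5, -0.087 to 0.076 for Col24a1 (ILMN_2857666), -0.50 to 0.063 and -0.41 to 0.18 for the 2 probes of Col2a1, and -0.37 to 0.11 for Col5a3. For Col25a1 they were -0.027 to 0.16 (ILMN_1220734), -0.76 to 0.096 (ILMN_1237273) and -0.11 to 0.095 (ILMN_2643186). With the replicate block the sign turned for Col24a1 (0.040), Col5a3 (0.078) and Col25a1 (-0.023 and -0.28). Scaled to a common median it turned for Col25a1 (-0.0081 and -0.022), and with array weights for Col25a1 (-0.0035). Signal near background limits all of these.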

Other observations

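Without the detection filter, 3 further collagen probes reached an unadjusted p under 0.05. The first was the Col6a1 probe ILMN_1259388, detected on all 7 arrays, with p of 0.0474 in limma against 0.0531 with the filter. The others, of Col3a1 and Col13a1, were detected on no array, and their values are given as such. For Col3a1 (ILMN_1258629) the log2 signals were 4.42 and 4.47 without the diet and 4.55 to 4.96 with it. For Col13a1 they were 4.58 and 4.84, against 4.29 to 4.41. The second Col3a1 probe had 4.57 and 4.63 against 4.43 to 4.59. These probes were chosen after their values were seen, and signals of undetected probes cannot be ordered.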
